A study of Mus musculus with 6 samples.

Results

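The Hox genes were examined in mouse skin fibroblasts (MSFs): every gene of the deposited table whose symbol is Hoxa, Hoxb, Hoxc or Hoxd followed by a number. They were chosen by symbol alone, though with earlier results of these data known, and 39 of the 22162 genes in the table are members. The cells came from dorsal skin of a female FASST mouse of the FVB/N strain, whose age is not given, and are described as 1 MSF line. FASST mice carry a tamoxifen (TAM)-inducible Cre-ERT2 driven by the pro-alpha 2(I) collagen (Col1a2) promoter, which is active in fibroblasts, and a ROSA26 allele in which excision of a stop cassette switches on p27Kip1 together with GFP. All 6 libraries share both alleles, culture in 3% oxygen and poly(A) selection of the RNA. In 3 libraries, named TAM, the cells had received 10 µM TAM for 48 h and were labelled senescent, and in 3, named EtOH, they had received the ethanol vehicle and were labelled non-senescent. No source used here says that the replicates were separate animals, so the tests measure the spread between these 6 libraries, which may be technical. The values below are normalized counts per gene as deposited, on a scale that the table does not state. Both questions put to the members, whether TAM and EtOH libraries differ and whether one replicate differs from another, were asked over all genes. The main model for the first held the condition only, and the model for the second held the condition and the replicate number.

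Hox genes encode homeodomain transcription factors that give cells an address along the body axes. In mammals they lie in 4 clusters, HoxA to HoxD, and genes at the same position in different clusters form paralog groups numbered 1 to 13. Low numbers act towards the head and high numbers towards the tail and, in limbs, towards the digits. Fibroblasts from adult skin keep the Hox pattern of the site they came from through culture, so the set of Hox genes that is on serves as a record of anatomical origin.

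The members resemble one another most in the homeobox, which bears on whether reads of one gene could be counted on another. Within the coding sequence of all 39 genes a pattern search found 1 stretch of 30 bases that codes for part of the DNA-recognition helix. The stretches of 9 genes are printed to show how close paralogs are, read 5′ to 3′ from the mm9 genome and annotation, with capitals marking the bases that differ from Hoxc10.
Hoxc10: tggtttcaaaatcgcagaatgaaactcaag
Hoxd10: tggtttcaaaaCcgcCgaatgaaactcaag
Hoxa10: tggtttcaGaatcgcagGatgaaactGaag
Hoxc9: tggtttcaGaaCcgGagGatgaaGAtGaaA
Hoxb9: tggtttcaGaaCcgGCgGatgaaaAtGaag
Hoxc8: tggttCcaGaatcgAagGatgaaGTGGaaA
Hoxc6: tggttCcaGaaCcgcCgCatgaaGTGGaaA
Hoxc11: tggtttcaGaaCAgGagaatgaaaGAAaaA
Hoxc13: tggttCcaGaatcgACgCGtgaaaGAGaaA
Hoxd10 differed from Hoxc10 at 2 of the 30 bases and Hoxa10 at 3, whereas Hoxc11, the next gene of the same cluster, differed at 8. Over all 39 genes there were 36 different stretches, since Hoxb3 and Hoxd3, Hoxa6 and Hoxb4, and Hoxb6 and Hoxb7 were identical pairs. Over the whole transcripts, the longest identical run between members of different clusters was 52 bases, between Hoxa6 and Hoxb4. Reads as short as these runs could match either gene of such a pair. The read length is not given in the sources used here, nor whether such reads were counted or dropped.

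The normalized counts summed to between 14952367 and 17314953 per library, and the number of reads behind them is not given in the sources used here. A value of 16.2 normalized counts corresponded to 1 c.p.m. (1 in 1000000 of the mean library sum), and a gene was tested when 3 or more libraries reached it. All 10 fibroblast markers examined passed this filter. Their summed values were 1536900 to 1688330 in EtOH libraries and 696679 to 1133570 in TAM libraries, and these sums did not overlap. The sums were carried mainly by Col1a1, Col1a2 and Col3a1, and single members differed in direction. Dcn was lower in every TAM library (75763 to 106514 in EtOH and 6712 to 27277 in TAM). Thy1 was higher in every TAM library (571 to 2165 and 2246 to 4122), and Vim overlapped (36676 to 71460 and 30844 to 64857). Of 10 keratinocyte markers 2 passed, with Krt1 at 0 in all 6 libraries and Krt14 at most 0.91. Cdkn1b, the gene for p27Kip1, read 1427 to 3074 in EtOH and 1520 to 1699 in TAM libraries. This row therefore did not show the switched-on allele. By other assays of MSFs, the paper reports GFP expression, growth arrest and more cells with senescence-associated β-galactosidase after TAM. EtOH and TAM are used below as the labels of the libraries. In RNA from whole cultures, fewer cells expressing a gene and less RNA per cell cannot be told apart.

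Of the 39 Hox genes, 26 passed the filter, against 11877 of the 22162 genes of the table. They formed a nearly continuous block: 25 of the 30 members in paralog groups 1 to 10 passed, and 1 of the 9 in groups 11 to 13. HoxA and HoxB each contributed 8 genes above the filter, of 11 and 10, HoxC 7 of 9, and HoxD 3 of 9. Of the 13 genes below the filter, Hoxb1, Hoxd1, Hoxd12 and Hoxd13 were listed at 0 in every library. HoxC supplied between 52.0% and 62.7% of all Hox normalized counts in a library, HoxB 17.2% to 27.6%, HoxA 12.2% to 18.7% and HoxD 3.15% to 6.52%. The order of the clusters was therefore the same in every library.

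**Figure D1:**
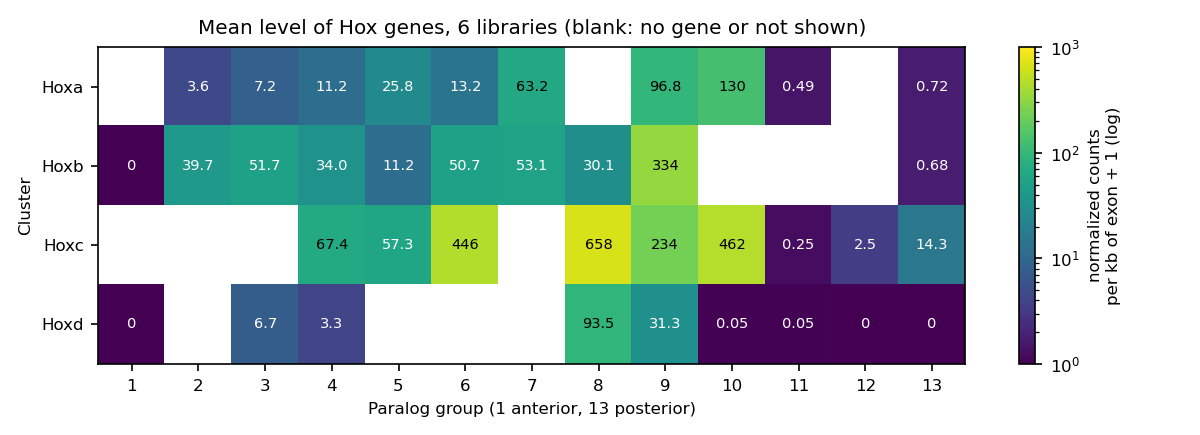
Mean level of the Hox genes over the 6 libraries, in normalized counts per kb of exon, with the 4 clusters as rows and paralog groups 1 to 13 as columns. The colour is on a log scale after adding 1, and blank cells have no gene or one not reported here. The 5 highest values are the HoxC genes of groups 6 to 10 (234 to 658) and Hoxb9 (334). Groups 11 to 13 are near 0 except Hoxc13 (14.3) and Hoxc12 (2.51).

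Levels of different genes were compared per kb of annotated exon. The annotated start and end equalled those of the deposited table for 13 of the 39 Hox genes, and for none of the 6 highest. The lengths used here, and the overlaps given below, may therefore differ from the gene models on which reads were counted. Hoxc8, which patterns the lower thorax, was highest at 658 ± 119 normalized counts per kb (SD, n = 6 libraries). It was followed by Hoxc10 (462 ± 66.7), Hoxc6 (446 ± 149), Hoxb9 (334 ± 83.6), Hoxc9 (234 ± 75.03) and Hoxa10 (130 ± 28.7). These 6 genes were the 6 highest in each library taken alone, and Hoxa10 was the sixth in all 6, but the first 5 changed places with one another. Hoxc8 was above Hoxc10 in 5 of 6 libraries, Hoxc10 above Hoxc6 in 4, Hoxc6 above Hoxb9 in 4 and Hoxb9 above Hoxc9 in 4. Among the 25 pairs of neighbours in the order of all 26 genes, 2 pairs kept their order in every library, Hoxc9 above Hoxa10 and Hoxa10 above Hoxa9. No pair had ranges over the 6 libraries that were separate. Apart from those 2 pairs, the order of direct neighbours changed with the library. Lower in the order, Hoxa9 (96.8 per kb), Hoxd8 (93.5), Hoxc4 (67.4) and Hoxa7 (63.2) led a group of middle-level genes, and Hoxa3 (7.22) and Hoxd3 (6.70) were the lowest of the 26. Divided by the exon length that no other annotated entry overlaps, Hoxa3 was at 15.5 per kb, above Hoxa4 at 11.2.

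The most anterior genes were at low to middle levels. Hoxb1, which patterns the hindbrain, and Hoxd1 were listed at 0 throughout. In group 2, Hoxb2 read 127, 202 and 67.2 normalized counts in EtOH replicates 1, 2 and 3 and 119.8, 186 and 85.5 in the TAM replicates in the same order, as for all genes below, with the replicate 2 library highest in both groups. Hoxa2, a selector of facial and hindbrain identity, stayed under the filter with values between 2.50 and 18.2. In group 3, Hoxb3 read 169.8, 164 and 159 and 169.8, 116 and 155, a narrow range. Hoxa3, needed for the thymus and parathyroid, read 35.8, 83.1 and 46.0 in EtOH and 54.4, 24.3 and 40.9 in TAM libraries. Hoxd3 was similar at 43.8, 24.8 and 51.4 and 50.8, 14.2 and 47.6. Overlapping transcripts limit this region. In the mm9 annotation 49.4% of Hoxb2 exon bases and 37.9% of Hoxb3 exon bases lie opposite the antisense transcript Hoxb3os. For Hoxa3, 53.5% of the exon bases overlap other annotated entries. The largest part, 33.0%, lies on the same strand in a second entry that is also named Hoxa3, so the Hoxa3 values are uncertain. Whether strand was used in counting is not given in the sources used here, so reads of the antisense partner cannot be told apart.

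Groups 4 and 5, which act in the neck and upper thorax, were above 0 in every library. Hoxb4, known for expanding blood stem cells, read 103, 137 and 99.1 in EtOH and 181, 185 and 141 in TAM. Every TAM library was above every EtOH library for this gene. Hoxc4 read 161, 134 and 177 and 212, 168 and 181, with overlapping groups. Hoxa4 sat at the filter with 9.18, 18.1 and 19.5 and 11.7, 33.5 and 15.0, and Hoxd4 stayed below it at 5.37 to 11.5. Hoxd4 shares 67.4% of its exon bases with Hoxd3, so these values are uncertain. Hoxc5 read 109, 91.5 and 142 in EtOH and 224, 249.7 and 189 in TAM, again without overlap. Of its paralogs, Hoxa5, required for lung development, read 35.0, 43.9 and 47.8 and 76.3, 35.2 and 51.9. Hoxb5 read 26.5, 24.8 and 48.9 and 30.5, 25.1 and 32.4. Both overlapped between the groups.

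Groups 6 to 8, the genes of the thorax, contained the highest member of the family, and in groups 6 and 8 the HoxC gene was above its paralogs in every library. Hoxc6 read 924, 686 and 1219 in EtOH and 1047, 1036 and 1788 in TAM libraries, with replicate 3 highest in both. Hoxb6 read 83.5, 125 and 94.7 and 109, 118 and 101, and Hoxa6 read 19.4, 28.6 and 21.2 and 42.6, 19.3 and 28.8. In group 7, Hoxa7 read 173, 88.7 and 187 and 291, 160.0 and 192, lowest in the replicate 2 library of each group. Hoxb7 was the steadiest of all, at 206, 191 and 195 in EtOH and 232, 248 and 229 in TAM, and the groups did not overlap. Hoxb7 and Hoxb8 share 1069 exon bases, 26.2% and 40.4% of their exons, so their values are not independent. In group 8, Hoxc8 read 1444, 1036 and 1767 in EtOH and 1499.6, 1540.0 and 1793 in TAM. Hoxd8 read 335, 142 and 345 and 322, 176 and 219, lowest in both replicate 2 libraries. Hoxb8 read 97.0, 66.8 and 101 and 63.1, 80.4 and 69.0, and here the EtOH values reached above the TAM values while still overlapping them.

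Groups 9 and 10 were the last before the boundary, and act in the lower thorax and the lumbar region, where group 10 suppresses ribs. Hoxb9 read 763, 708 and 632 in EtOH and 1052, 1188 and 812 in TAM, so the lowest TAM library was above the highest EtOH library. Hoxc9 read 548, 358 and 731 and 468, 462 and 839.6, with replicate 3 highest in each group. Hoxa9, also known as a driver of leukaemia, read 316, 262 and 426 and 407, 205 and 411. Hoxd9 was lower at 83.9, 39.1 and 86.0 and 80.6, 47.7 and 72.9. For these last 3 genes the groups overlapped. In group 10, Hoxc10 read 781, 1130.5 and 881 in EtOH and 817, 867 and 815 in TAM libraries. Hoxa10, which is also needed in the uterus, read 505, 331 and 521 and 614, 419 and 609.6. Their paralog Hoxd10, which differs from Hoxc10 at 2 bases of the printed stretch but shares no run longer than 20 bases with any Hox gene of another cluster, was listed at 0 in 5 libraries and at 0.74 in TAM replicate 3.

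**Figure D2:**
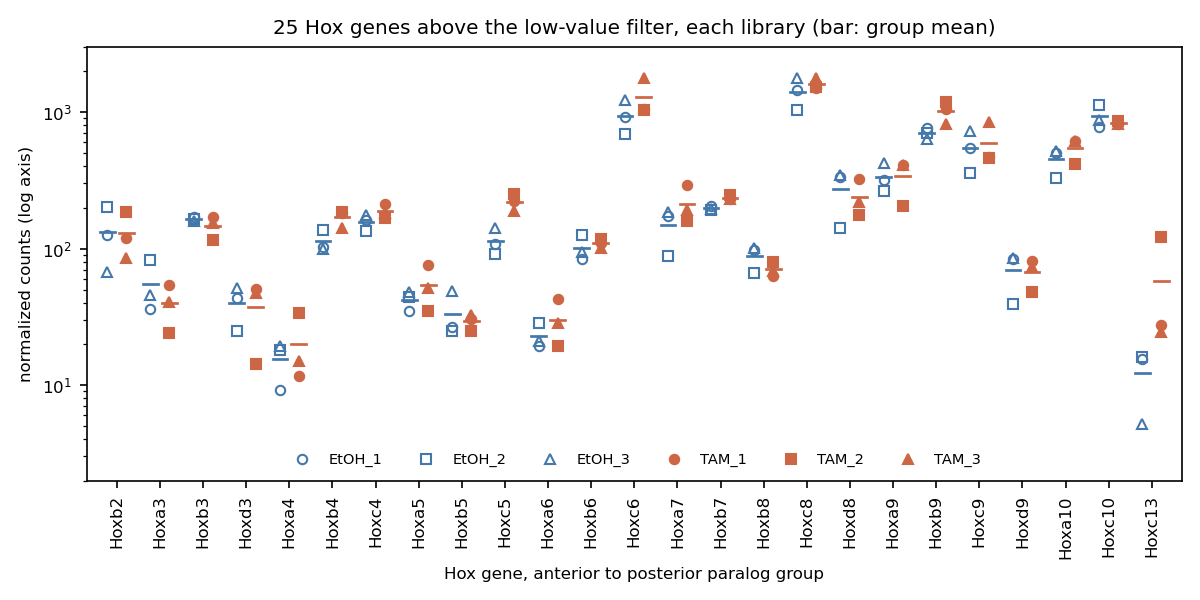
Normalized counts (log axis) of 25 Hox genes that passed the filter in each of the 6 libraries, ordered from anterior to posterior paralog group. Open blue symbols are EtOH, filled orange symbols TAM, circles, squares and triangles are replicates 1, 2 and 3, and bars are group means. Hoxc8 lies between 1036 and 1793 in every library, and TAM replicate 2 of Hoxc13 (122) stands apart from the other libraries.

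Normalized counts dropped at a sharp posterior boundary in each cluster. In HoxC it fell between Hoxc10 and Hoxc11, adjacent Hox genes on chromosome 15 (mm9, plus strand, annotated at chr15:102797227-102802324 and chr15:102784858-102788139). Hoxc11 read 1.65, 0 and 0 in EtOH and 0.73, 0 and 0.70 in TAM libraries. In HoxA the same step lay between Hoxa10 (chr6:52181196-52190853, minus strand) and Hoxa11 (chr6:52192107-52196213), which read 2.35, 0 and 0.84 and 3.06, 1.66 and 0. In HoxD it came 1 gene earlier, after Hoxd9 (chr2:74535737-74538265, plus strand), since Hoxd10 (chr2:74529147-74533163) was near 0. In HoxB, which has no genes of groups 10 to 12, Hoxb9 (chr11:96132771-96137909, plus strand) was on and Hoxb13 (chr11:96055630-96058761), a gene of tail skin and prostate, read 3.30, 0 and 0 and 4.02, 1.66 and 0. Hoxa13, a gene of the digits and genital tubercle, read at most 4.98. Hoxc12, of 1031 exon bases, read 9.91, 1.89 and 0 in EtOH and 3.75, 0 and 0 in TAM. Per kb it reached 9.61 in EtOH replicate 1, above Hoxa3 (5.46), Hoxa4 (5.76), Hoxd3 (7.57) and Hoxb5 (9.43) in that library. Hoxd11 was above 0 in 2 libraries, at 0.97 and 0.82. The depth of the libraries is not known, so a level below about 1 normalized count could not be told from absence.

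Hoxc13 (chr15:102751534-102759245, mm9, plus strand), known for its part in hair and nail formation, was the only gene beyond the boundary that passed the filter. It read 15.5, 16.2 and 5.17 in EtOH and 27.7, 122 and 24.6 in TAM libraries, and every TAM library was above every EtOH library. It passed the filter through the 3 TAM libraries and EtOH replicate 2, which was at the limit. TAM replicate 2 was the highest, and that library also stood apart in Acta1, a gene of skeletal muscle, with 1404 against 21.1 to 56.2 in the other 5. The keratinocyte list summed to 81.1 to 96.6 in EtOH and 76.5 to 134.8 in TAM libraries. The 2 list members above the filter were Trp63, a regulator of basal keratinocytes, at 25.1, 25.8 and 24.9 in EtOH and 7.15, 2.50 and 6.87 in TAM, and Krt10, a keratin of the upper layers, at 52.4, 41.0 and 57.6 and 47.6, 41.9 and 59.1. Trp63 was thus lower in every TAM library, and Krt10 overlapped. Below the filter, Dsp, a desmosome gene, read 69.5 in TAM replicate 2, 29.8 in TAM replicate 3 and at most 12.4 elsewhere. Krt5 read 0.64, 0 and 0 in EtOH and 2.96, 7.53 and 13.4 in TAM, higher in every TAM library. Sfn read 1.40, 0 and 4.41 and 10.1, 5.01 and 2.73, with overlap. Krt15 read 0.75, 0 and 0 and 0.70, 3.34 and 2.32, also with overlap. Epcam read at most 4.18 and Cdh1 at most 0.97, and Krt1 and Krt14 were at or near 0 as above. The part of these markers in the Hoxc13 values was not tested.

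To determine if TAM treatment altered the Hox code, the 3 TAM libraries were compared with the 3 EtOH libraries by limma on log2(value + 1), with p-values adjusted by the Benjamini-Hochberg method over all 11877 genes tested. None of the 26 Hox genes passed an adjusted p of 0.05, whereas 29 of all genes did (0.244%). At an unadjusted p under 0.05 there were 4 Hox genes, all higher in TAM, against 1588 of all genes in either direction (13.4%), of which 792 were higher (6.67%). A model that held the replicate number as a block likewise called 0 Hox genes, against 192 of all genes (1.62%), with 5 Hox genes and 2014 of all genes (17.0%) at an unadjusted p under 0.05. The median log2 fold change of the 26 genes was 0.23, beside −0.03 over all genes tested, and 17 of the 26 were above 0, beside 46.2% of all genes. Rescaling the libraries to equal sums moved the median of all genes by 0.11. These counts cover only the members above the filter and are given as a description. They include Hoxc13, which passed the filter mainly through its TAM libraries.

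The 4 genes were Hoxc5, Hoxb9, Hoxb4 and Hoxc13. Hoxc5 rested on means of 114 ± 25.5 (SD, n = 3) in EtOH and 221 ± 30.5 (SD, n = 3) in TAM, a log2 fold change of 0.96 (SE 0.24, 95% interval 0.39 to 1.54, limma adjusted p = 0.187). Hoxb9 had means of 701 ± 65.3 (SD, n = 3) and 1017 ± 191 (SD, n = 3) and a log2 fold change of 0.52 (SE 0.20, 95% interval 0.06 to 0.98, limma adjusted p = 0.317). Hoxb4 was at 113 ± 21.0 (SD, n = 3) and 169 ± 24.3 (SD, n = 3), with a log2 fold change of 0.58 (SE 0.24, 95% interval 0.02 to 1.14, limma adjusted p = 0.358). For each of these 3 the TAM library was above its same-numbered EtOH library in 3 of 3 pairs. Hoxc13 had the greatest log2 fold change of the 26, 1.90 (SE 0.74, 95% interval 0.15 to 3.64, limma adjusted p = 0.335), which was 1.17 without TAM replicate 2, still without passing the test. Its means were 12.3 ± 6.18 (SD, n = 3) and 58.2 ± 55.5 (SD, n = 3). These values come from the model without the block. With the block the limma adjusted p was 0.177 for Hoxc5, 0.223 for Hoxb9, 0.265 for Hoxb4 and 0.164 for Hoxc13. The block added Hoxc6, a log2 fold change of 0.44 (block SE 0.17, limma adjusted p = 0.288 with the block and 0.581 without).

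The groups did not overlap for 5 of the 26 genes, Hoxb4, Hoxb7, Hoxb9, Hoxc5 and Hoxc13, all with TAM above. Hoxc13 passed the filter mainly through its TAM libraries, and it is also in the count of pairs below. Over all genes tested the groups did not overlap for 20.6%, with TAM above in 9.19% and below in 11.4%. Of the same-numbered pairs, 10 of the 26 genes were higher in TAM in 3 of 3 and 0 were lower in 3 of 3, beside 18.3% and 23.6% of all genes. Hoxb7 showed how small a separated difference could be, with means of 197 ± 8.15 (SD, n = 3) and 236 ± 10.1 (SD, n = 3) and a log2 fold change of 0.26 (SE 0.17).

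The intervals also limit how large a change could have gone uncalled. For 12 of the 26 genes the 95% interval of the log2 fold change lay within 1 unit on either side of 0, and with the block for 15. Hoxc10 was among them at a log2 fold change of −0.14 (95% interval −0.58 to 0.29), as were Hoxc8 at 0.22 (−0.32 to 0.75), Hoxa10 at 0.28 (−0.32 to 0.89) and Hoxc9 at 0.11 (−0.69 to 0.92). For low genes such as Hoxa4, at 0.27 (−1.06 to 1.60), the interval took in changes of more than 1 unit in both directions. No gene of groups 11 to 13 other than Hoxc13 reached the filter in either condition, and Hoxd1, Hoxb1, Hoxd12 and Hoxd13 stayed at 0 in both.

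**Figure D3:**
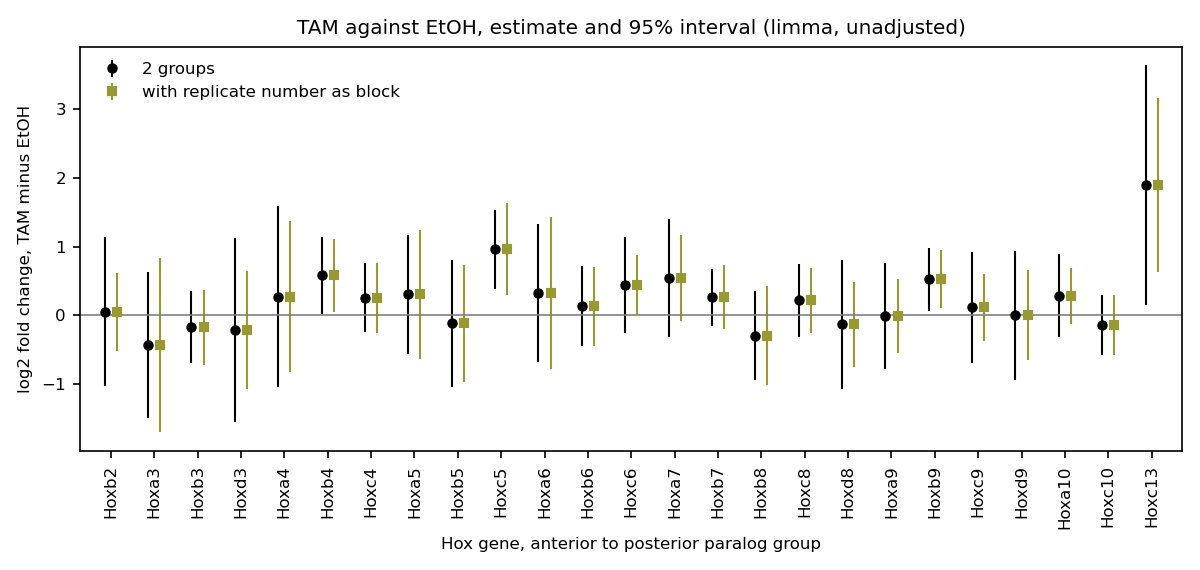
Log2 fold change of TAM minus EtOH for 25 Hox genes that passed the filter, from limma on log2(value + 1), with unadjusted 95% intervals. Black circles are the model of 2 groups and olive squares the model that adds the replicate number. The intervals of Hoxb4, Hoxb9, Hoxc5 and Hoxc13 lie above 0 in both models and that of Hoxc6 only with the block, and none of the genes passed the adjusted threshold.

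To determine if the replicates carried the same Hox code, levels per kb of all 39 genes were compared between libraries. Spearman's correlation across the genes was 0.941 to 0.985 over the 15 pairs of libraries. It was 0.954 to 0.980 for the 6 pairs within a condition and 0.946 to 0.985 for the 3 same-numbered pairs. Restricted to the 26 genes above the filter it was 0.871 to 0.992. These are correlations across genes, which share the length used and are not independent replicates.

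Within this shared profile, replicate 2 differed for a group of genes. Hoxa7, Hoxa9, Hoxa10, Hoxb5, Hoxc9, Hoxd3, Hoxd8 and Hoxd9 were lower in both replicate 2 libraries than in the other 4, which is 8 of 26 genes, beside 11.9% of all genes tested. Hoxb2 and Hoxb6 were higher in both, which is 2 of 26, beside 12.6% of all genes. Hoxd8 averaged 159 normalized counts in the replicate 2 libraries against 328 and 282 in replicates 1 and 3, a log2 difference of −1.05 from replicate 1. Hoxd3 averaged 19.5 against 47.3 and 49.5, and Hoxd9 43.4 against 82.2 and 79.5, so all 3 HoxD genes above the filter were lowest in replicate 2. Hoxa10 averaged 375 against 560 and 565 (log2 difference −0.58 from replicate 1). Hoxb2 went the other way, with 194 against 123 and 76.3.

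The F test of replicate number in limma, with the condition in the model, gave adjusted p of 0.267 for Hoxb2, the lowest of the family, and called 0 of the 26 Hox genes and 0 of the 11877 genes (0.0%). At an unadjusted p under 0.05 there were 7 Hox genes, Hoxa9, Hoxa10, Hoxb2, Hoxc6, Hoxc9, Hoxd3 and Hoxd8, against 1454 of all genes (12.2%). For Hoxc6 and Hoxc9 it was replicate 3 that stood highest, at means of 1503 and 785 normalized counts against 986 and 508 in replicate 1. Deviations of the libraries from their condition means, on the log2 scale and across the 26 genes, correlated between the EtOH and TAM libraries of the same number with r = 0.50 for number 2 and 0.75 for number 3, but −0.04 for number 1. Across libraries of different numbers r ranged from −0.63 to 0.31. The deviations of a gene cancel out within a condition, so these r values are not independent of the same-number ones. For Hoxd3, Hoxd8, Hoxd9, Hoxa9, Hoxa10 and Hoxc9, named here for their low replicate 2 values, the log2 difference of replicate 2 from replicate 1 was larger in size than that between conditions. For the difference of replicate 3 from replicate 1 this did not hold for Hoxa10 and Hoxd3. Choosing genes by their low replicate 2 values favours a large replicate 2 difference. The comparison therefore cannot tell whether replicate or condition mattered more.

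**Figure D4:**
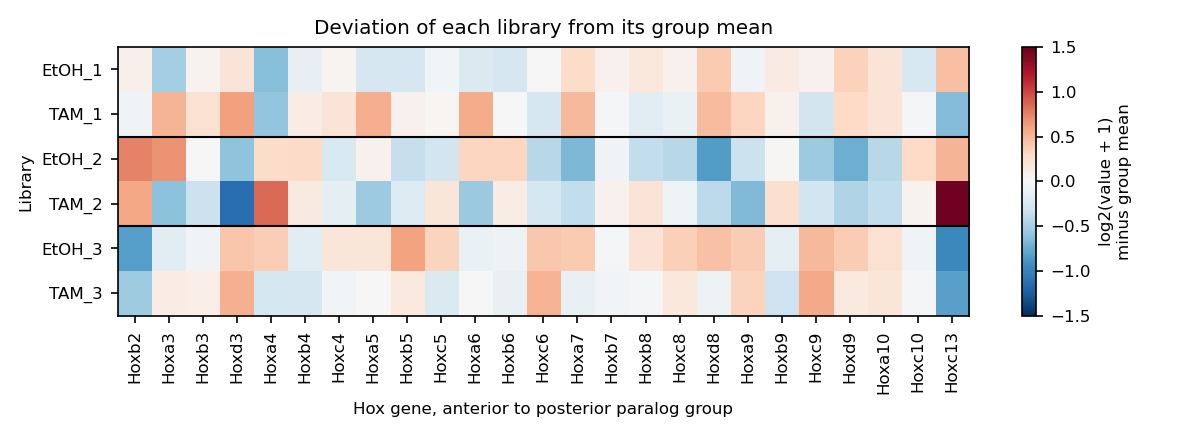
Deviation of each library from the mean of its condition on the log2(value + 1) scale, for 25 Hox genes above the filter, with libraries of the same replicate number side by side. Red is above and blue below the condition mean. Both replicate 2 libraries are blue for Hoxd3 (−0.61 and −1.15), Hoxd8 and Hoxd9 and red for Hoxb2 (0.75 and 0.58), and TAM replicate 2 of Hoxc13 is at 1.46.

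Genes that act with or upstream of Hox genes were examined in the same model from 4 lists. Over all genes tested, 0.244% were called, or 1.62% with the block. An unadjusted p under 0.05 was reached by 13.4% without the block, with 6.67% higher in TAM. TALE homeodomain proteins are partners with which Hox proteins bind DNA. Of the 11 listed genes 10 were tested and 0 were called with or without the block, and the median log2 fold change was −0.21. At an unadjusted p under 0.05, 1 was higher in TAM, Pbx3, at 210.3, 194 and 167 in EtOH and 362, 310.0 and 215 in TAM, a log2 fold change of 0.61 (SE 0.25, limma adjusted p = 0.353). Polycomb and Trithorax proteins hold Hox genes silent or active. All 39 found in the table were tested, 0 were called, and the median was −0.23, with 9 of the 39 above 0, beside 46.2% of all genes. The one with an unadjusted p under 0.05 was Pcgf2, a Polycomb subunit also called Mel18, at 979, 1514 and 1133 and 741, 524 and 781, a log2 fold change of −0.82 (SE 0.24, limma adjusted p = 0.229). Ezh2, the Polycomb methyltransferase, was at a log2 fold change of −0.54 (SE 0.24, limma adjusted p = 0.385).

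Axial and retinoid regulators set the Hox code in the embryo. Of the 22 listed genes 12 were tested and 0 were called, with a median log2 fold change of −0.07 and 1 gene in each direction at an unadjusted p under 0.05. Gdf11, a secreted factor that sets posterior Hox expression, read 359, 310.0 and 470.3 in EtOH and 680.4, 841 and 795 in TAM, so the groups did not overlap, with a log2 fold change of 1.04 (SE 0.21, limma adjusted p = 0.124). Crabp2, which carries retinoic acid, was at −1.06 (SE 0.44, limma adjusted p = 0.365). Among 43 other transcription factors of body regions 14 were tested. The median was 0.19. At an unadjusted p under 0.05, 3 were higher and 3 lower in TAM, beside 13.4% of all genes in either direction. Tbx3, a limb and mammary T-box gene, read 738, 972 and 1470.0 and 276, 418 and 602. Its log2 fold change of −1.31 was not called in the model of 2 groups (SE 0.36, limma adjusted p = 0.207) and was called with the block (SE 0.16, limma adjusted p = 0.0372), and it was the only gene of the 75 tested in the 4 lists for which the block changed the call. Twist1, a basic helix-loop-helix gene of mesenchyme, was at 1798, 1475 and 2023 and 854, 852 and 1036 (log2 fold change −0.94, limma adjusted p = 0.119). Its relative Twist2 was at 873, 715 and 543 and 1907, 2695 and 1016 (log2 fold change 1.31, limma adjusted p = 0.217). Both Twist genes had groups that did not overlap, in opposite directions. Over all genes tested, the groups did not overlap for 20.6%.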

How the data were processed

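Poly(A) RNA of 6 MSF libraries was sequenced, 3 TAM and 3 EtOH. The authors aligned reads to mm9 with TopHat, assigned them to genes with htseq-count and applied edgeR with TMM, versions not given. The signal the authors deposited is 1 table of normalized counts, not whole numbers, with the scaling not stated. Between 1 and 38 different values lay below 1 in a library, so whole reads were not recovered and a count test was not used. The members, gene lists and tests were chosen with earlier results of these data known.

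Values were tested with limma 3.58.1 in R 4.3.3 after a log2(value + 1) transform, with the variance trend on mean level, over genes reaching 1 c.p.m. (16.2 normalized counts) in 3 libraries, without further scaling. Benjamini-Hochberg adjustment covered all genes tested, and the threshold was 0.05. The replicate number was tested by an F test with the condition in the model. The code was tested on simulated data. Same-numbered libraries, whose numbers come from the labels, deviated together across 11877 genes (r = 0.24, 0.29 and 0.42). The main model of TAM against EtOH nevertheless held the group only. The pairing entered as a replicate block in an alternative model, which is given beside the main counts and the results it changed. Exon lengths, overlaps, coordinates and sequences come from the mm9 genome and its Ensembl annotation, whereas the paper counted reads on RefSeq genes. Values in every library are given for each Hox gene above the filter but 1, which is not reported here, and up to 3 genes with the smallest p, or those called, for each list. Alternatives were other scalings, filters, pseudocounts, library weights, leaving out each library, and other gene lengths. Python 3.11.15 with pandas 2.3.3, scipy 1.17.1 and matplotlib 3.10.9 made the tables and plots.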

Additional observations from a re-analysis of the deposited data

How the results depend on the processing

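Under all 15 alternatives tried for TAM against EtOH, leaving out each library included, limma called 0 Hox genes, with 1 to 5 at an unadjusted p under 0.05. For the replicate number it called 0 under all 14, with 0 to 9 at an unadjusted p under 0.05. With the replicate block the 4 regulator lists gave 1 call, Tbx3, against 0 without it, and the block changed no other call among the Hox genes and lists. With library weights, whose estimation stopped before convergence, the lists gave 4 calls, Gdf11, Shox2, Tbx18 and Twist1, and the cause was not tested. Over all genes the calls were 29, against 192 with the replicate block, 742 with library weights and 0 to 15 when 1 library was left out. For the replicate number the calls over all genes were 0, against 19 with library weights, 623 without TAM replicate 2, 514 without EtOH replicate 2 and 0 to 21 without any other. Leaving out 1 library moved Hoxc9 between −0.17 and 0.35 and Hoxc10 between −0.26 and 0.0056 on the log2 scale, so the sign of either was not fixed. For the other 8 Hox genes examined in this way the sign was kept under every alternative that gave a value, with Hoxc13 between 1.17 and 2.30 when 1 library was left out. Hoxc13 could not be fitted at a minimum of 10 in every library. The number of Hox genes above the filter was 24 to 28 under the alternatives, and the 6 highest per kb were the same 6. Restricting the profile to the 26 genes above the filter, an alternative chosen after seeing the data, lowered its smallest Spearman correlation from 0.941 to 0.871. Precision is that of 3 libraries against 3, and low genes may rest on a few reads.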

Other observations

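Genes beside the Hox clusters were read in the same libraries. Evx1 and Evx2, homeobox genes at the posterior ends of HoxA and HoxD, were listed at 0 in all 6 libraries. Calcoco1, the nearest named gene on the posterior side of HoxC, read 1325 to 4242 normalized counts, the highest of these neighbours. Skap2, next to the anterior end of HoxA, read 419.7 to 662, and Mtx2, a mitochondrial import gene next to the anterior end of HoxD, read 464 to 606, although Hoxd1 on the near side was at 0. Smug1, a DNA repair gene beyond Hoxc4, read 170.4 to 256. Skap1, beyond Hoxb1, read 0 to 27.6, and Ttll6, beyond Hoxb13, read 0 to 2.75.

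The non-member transcript AK078566 lies inside HoxB between Hoxb13 and Hoxb9 (chr11:96112908-96125798, mm9) and was singled out after its values were seen. It read 274, 207 and 238 normalized counts in EtOH replicates 1, 2 and 3 and 449, 377 and 384 in the TAM replicates, so the groups did not overlap. Its log2 fold change was 0.75 (SE 0.19, limma adjusted p = 0.187, or 0.132 once the replicate block was added), which did not pass the test.

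Of the other cell type marker lists, the summed normalized counts in EtOH and TAM libraries were 85.8 to 241 and 15.7 to 35.1 for endothelial cells, with Kdr, a receptor of vascular endothelial growth factor, at 68.7 to 205 and 4.84 to 14. They were 203 to 527 and 366 to 548 for macrophages and leukocytes, and 134 to 255 and 141 to 190.1 for melanocytes. For adipocytes they were 12.2 to 338 and 37.7 to 103. For skeletal muscle they were 22.9 to 65.8 and 36.3 to 1420.1, the highest being TAM replicate 2. Whether these bear on any Hox level was not tested.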
